A study of Rattus norvegicus with 6 samples.

Results

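Zinc finger protein genes form one of the most numerous groups of DNA-binding regulators in mammals, and their differentially methylated regions (DMRs) were examined in rat hippocampal brain microvascular endothelial cells (BMECs) after chronic unpredictable mild stress (CUMS). A gene was included when its symbol began with Zfp, Zbtb, Zscan, Zkscan, Zfhx or Zeb, or with Znf and a digit, and a region was counted once by its position and cytosine context. This gave 175 regions of 98 genes, out of 24862 annotated regions and out of 12262 regions annotated to a gene or promoter. For scale, RefSeq holds 487 protein-coding symbols that fit this rule, and 28.6% of all RefSeq protein-coding symbols had a region. The 98 symbols are those of the annotation, which names some genes otherwise than RefSeq does. The number 98 is thus not a sign that zinc finger genes had regions more often than other genes. By symbol, 74 Zfp genes held 124 regions, 19 Zbtb genes held 35, 2 Znf genes held 4, Zfhx3 alone held 10, and Zeb1 and Zeb2 held 2. No Zscan or Zkscan symbol had a region.

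The cells were sorted as CD45-/CD31+ from the hippocampus of male Sprague-Dawley rats, which were 6 weeks old at purchase. The CUMS group comprised 3 samples from rats that received a changing daily stressor (among them restraint, deprivation, cage tilt, wet bedding, cold swimming and continuous light) for 8 weeks, and the Ctrl group comprised 3 samples from rats left undisturbed. Per the study's methods, unstressed and stressed rats without vitamin treatment were given saline by gavage. All rats were of the same sex and strain, and the sort defines the cells by surface markers only. The tables give 1 methylation level per region for Ctrl and 1 for CUMS, in which the authors combined the samples. The study's methods give a sequencing coverage for the samples, but the tables hold no read number per region. No value below therefore has a replicate error or a depth of its own, no test against the spread between rats could be made, and every count describes the listed regions.

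Most zinc finger proteins bind DNA through tandem C2H2 fingers, each of which holds a zinc ion and reads a few bases. Many carry a further domain that recruits partners: a KRAB box binds the corepressor Trim28, a BTB domain, from which the Zbtb genes take their name, pairs the proteins and binds corepressors such as Bcor, and the Zeb proteins repress genes through E-box motifs. Methylation of cytosine followed by G (the CG context) in a CpG island promoter generally accompanies silencing, whereas methylation within gene bodies is common in expressed genes. CHG and CHH, in which H is any base except G, are sparsely methylated in most mammalian tissues outside neurons and stem cells.

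Promoter windows of 5 genes show what kind of sequence lies before the starts of these genes. They are the 250 bases before the RefSeq transcription start on the GRCr8 assembly, on the strand of the gene, and capitals mark each CG. Zfp275, Zfp467, Zfp574 and Zfp804a are those of the 8 genes with the largest increase of CG methylation in a promoter region for which a window was matched. Zfp42 is shown because it held the only CG promoter region that was lower in CUMS. The DMR coordinates are on the earlier mRatBN7.2 assembly and were not placed on these windows, so a window need not contain the DMR.
Zfp275: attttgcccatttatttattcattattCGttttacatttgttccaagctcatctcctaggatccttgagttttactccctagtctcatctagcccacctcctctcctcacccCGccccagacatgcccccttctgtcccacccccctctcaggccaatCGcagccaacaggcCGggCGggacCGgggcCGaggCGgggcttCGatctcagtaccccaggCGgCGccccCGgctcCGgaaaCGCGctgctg
Zfp467: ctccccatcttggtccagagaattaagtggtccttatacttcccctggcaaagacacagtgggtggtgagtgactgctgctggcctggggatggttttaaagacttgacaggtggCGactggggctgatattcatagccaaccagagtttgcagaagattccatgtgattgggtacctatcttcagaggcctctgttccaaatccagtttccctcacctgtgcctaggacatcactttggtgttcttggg
Zfp574: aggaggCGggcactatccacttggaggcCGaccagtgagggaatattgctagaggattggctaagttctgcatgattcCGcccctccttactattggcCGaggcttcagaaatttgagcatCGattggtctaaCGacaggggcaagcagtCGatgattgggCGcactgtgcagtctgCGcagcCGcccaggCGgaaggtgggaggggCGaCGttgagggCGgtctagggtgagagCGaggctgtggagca
Zfp804a: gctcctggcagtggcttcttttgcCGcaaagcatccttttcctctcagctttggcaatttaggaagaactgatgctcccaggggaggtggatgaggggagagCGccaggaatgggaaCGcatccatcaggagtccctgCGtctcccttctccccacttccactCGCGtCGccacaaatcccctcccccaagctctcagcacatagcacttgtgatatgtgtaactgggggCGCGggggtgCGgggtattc
Zfp42: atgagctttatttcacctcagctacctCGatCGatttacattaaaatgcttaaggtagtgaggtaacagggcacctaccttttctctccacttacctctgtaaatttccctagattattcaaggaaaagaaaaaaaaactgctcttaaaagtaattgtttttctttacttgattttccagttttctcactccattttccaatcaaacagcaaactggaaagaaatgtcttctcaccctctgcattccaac
The Zfp275 window (chrX:156208664-156208913, plus strand) and the Zfp574 window (chr1:89799977-89800226, plus strand) each hold 15 CG. The Zfp804a window (chr3:87440246-87440495, plus strand) holds 10 CG. The Zfp42 window (chr16:55568653-55568902, plus strand) holds 2 and the Zfp467 window (chr4:78723136-78723385, minus strand) holds 1. Zfp275, Zfp574 and Zfp804a are thus rich in CG, and Zfp42 and Zfp467 are poor, against a median of 5 over the same bases of all 33469 windows. Of all windows, 25.8% hold at least 15 CG, 35.9% at least 10, 81.9% at least 2 and 92.2% at least 1. RefSeq windows were matched for 69 of the 98 genes (70.4%), and because this was below 80% no comparison over the group of genes was made.

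Of the 175 regions, 139 were higher in CUMS (hypermethylated) and 36 were lower (hypomethylated), a share of 79.4% hypermethylated. Here and below, rose and fell describe the CUMS level relative to the Ctrl level of a region that the authors' caller listed. The background was of the same order, at 75.3% of all annotated regions and 78.1% of all gene or promoter regions. By gene, 68 of the 98 genes had hypermethylated regions only, 16 had hypomethylated regions only and 14 had both. The Zbtb genes held 30 hypermethylated and 5 hypomethylated regions, and all 5 of the latter were in CHG. The Zfp genes held 95 and 29. The study's methods set the limit for a DMR at 10 points of difference in level (percentage points). This was reached by 74 of the 175 regions. Below it lay 22 of the 87 CG, 48 of the 49 CHG and 31 of the 39 CHH regions, which were kept because the deposited table lists and annotates them.

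The contexts differed in direction and in level. In CG, 78 of 87 regions (89.7%) were hypermethylated, against a background of 87.7%. In CHG the count was 32 of 49 (65.3%), against 69.3%, and in CHH it was 29 of 39 (74.4%), against 77.5%. Each share was thus close to that of all gene or promoter regions in its context. The make-up by context differed more, since CG regions made up 49.7% of the zinc finger regions and 32.6% of the regions of other genes. CHG regions made up 28.0% against 33.9%, and CHH regions 22.3% against 33.5%. Of the zinc finger CG regions, 75.9% lay in a CpG island, against 69.3% for other genes.

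**Figure D1:**
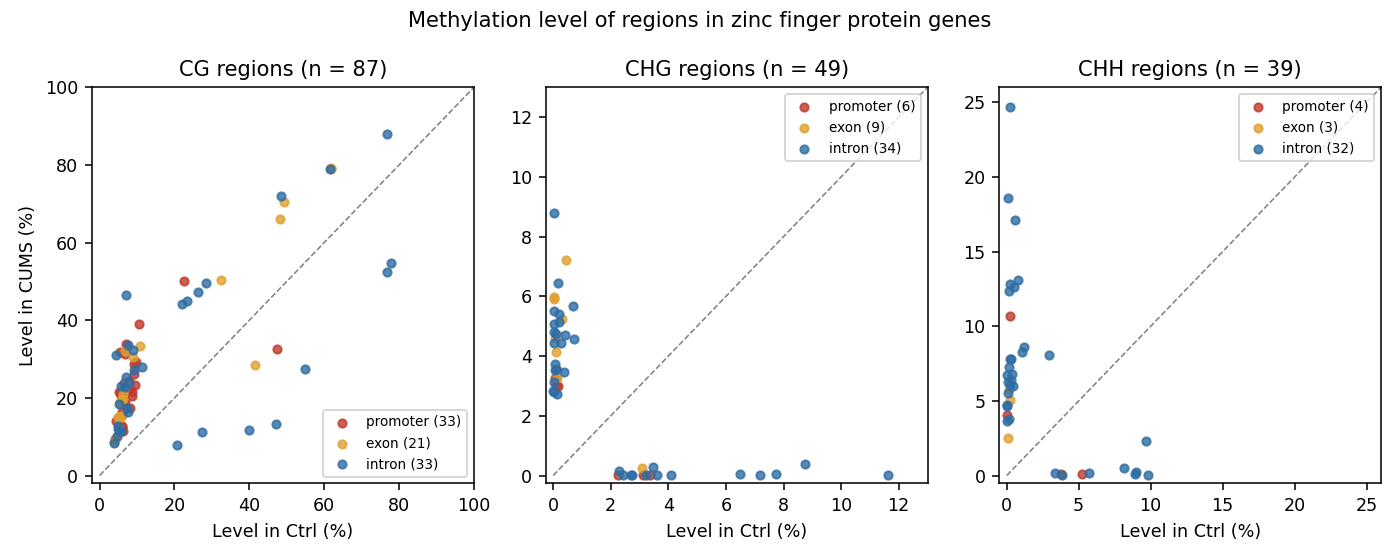
Methylation level (%) of each zinc finger gene region in Ctrl (x axis) and CUMS (y axis), with 1 point per region, colour for its place in the gene, and a dashed line of equal level. CG points above the line mostly start between 3.79% and 11.4% in Ctrl, and the CHG and CHH points lie along the axes, with 1 group near 0.

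Place in the gene was taken in the order promoter, exon and intron. In promoters 37 of 43 regions were hypermethylated (86.0%), in exons 31 of 33 (93.9%) and in introns 71 of 99 (71.7%). The background was 88.8% in promoters, 84.3% in exons and 73.5% in introns. Split by context, CG promoter regions were hypermethylated in 32 of 33 cases (97.0%), with a background of 96.9%. CG exon regions followed with 20 of 21 (95.2%, background 95.5%), and CG intron regions with 26 of 33 (78.8%, background 71.2%). Hypomethylated CG regions were thus mostly intronic in the zinc finger genes, as they were among all genes.

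CpG island position separated the CG regions in the same way. In CpG islands 64 of 66 CG regions were higher in CUMS (97.0%, background 97.8%), and the 29 island regions in promoters were all hypermethylated (background 99%). The 5 shore regions were also all hypermethylated (background 77.9%). In the open sea, far from any island, 9 were higher and 7 lower in CUMS (56.2% hypermethylated, background 62.3%).

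**Figure D2:**
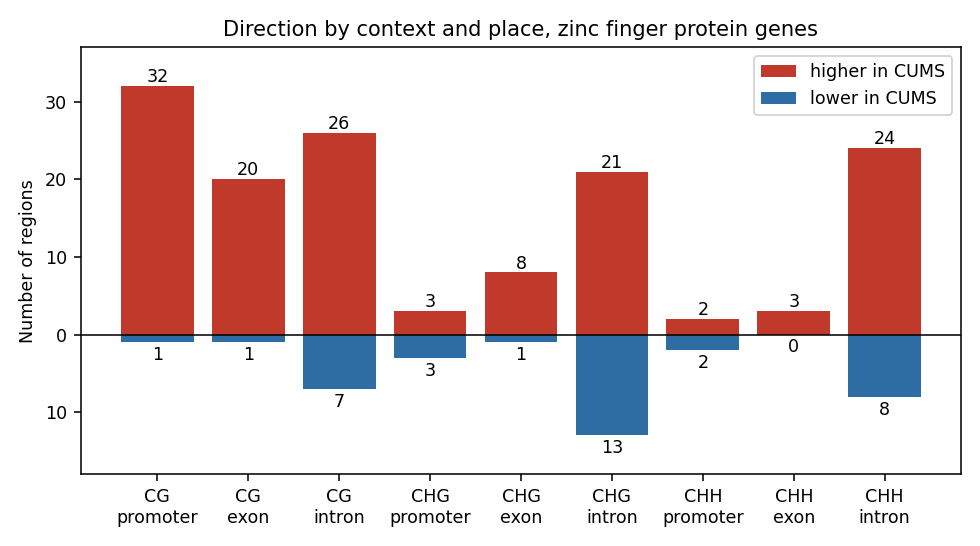
Number of zinc finger gene regions higher (red, above 0) and lower (blue, below 0) in CUMS, by context and place. CG promoters held 32 higher and 1 lower region, and CHG introns held the most lower regions, with 13 against 21 higher.

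CHG regions did not show the promoter pattern of CG. In CHG promoters 3 regions were higher and 3 lower (background 67.4% hypermethylated), in exons 8 and 1 (background 65.6%), and in introns 21 and 13 (background 70.2%). In islands, 4 CHG regions were higher and 5 lower (background 62.3%). In CHH, introns held 24 higher and 8 lower regions (background 77.2%), promoters 2 and 2 (background 80.9%), and exons 3 and 0 (background 76.7%). With 3 to 9 regions in a class, a single region moves these shares by a wide margin.

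CHH regions were further split by repeats. Of the 18 CHH regions annotated to a repeat, 17 were hypermethylated (94.4%), and of the 21 outside repeats 12 were (57.1%). The background was 78.9% in repeats and 76.2% outside them. Among the zinc finger regions, 8 of 9 CHH regions in LTR elements (background 79.2%) and 5 of 5 in SINE/Alu elements (background 79.2%) were higher in CUMS. The difference between these shares was not tested.

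**Figure D3:**
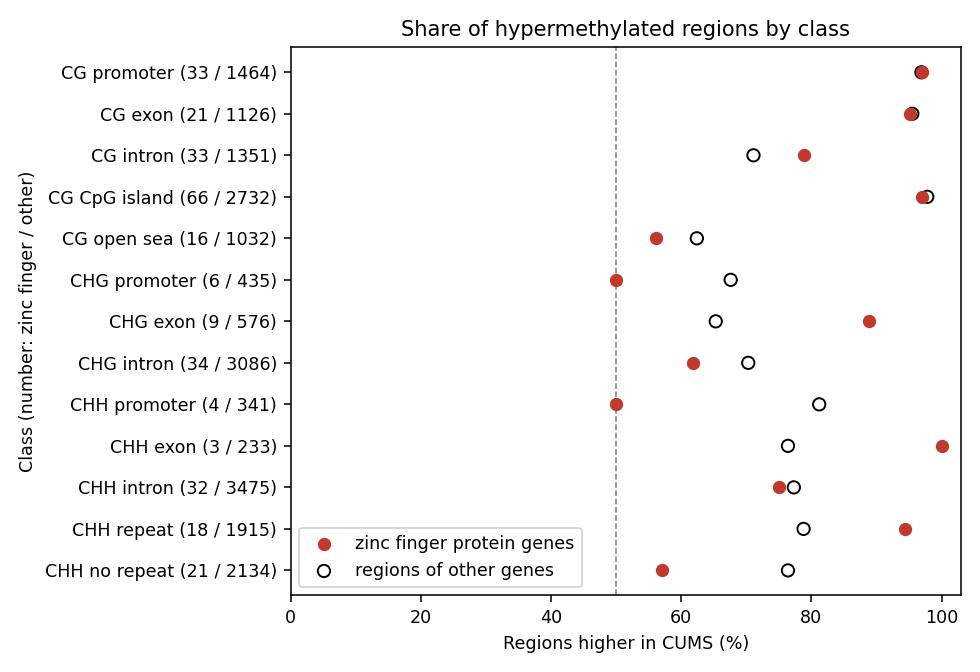
Share of regions higher in CUMS (%) by class, for zinc finger genes (filled red) and other genes (open), with region numbers in brackets (zinc finger / other) and a dashed line at 50%. The symbols nearly coincide for CG promoters, exons and islands and lie furthest apart in classes of few regions.

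The CG regions that rose fell into separate ranges of Ctrl level. In 65 of the 78 hypermethylated CG regions the Ctrl level was between 3.79% and 11.4%, and in the other 13 it was between 22.1% and 76.7%, with none between. Of the 65, 61 lay in CpG islands, and their median difference was 13.7 percentage points. Of the 13, 3 lay in islands, and their median difference was 21.0 points. Hypermethylated CG regions of all genes also differed by position, with a median Ctrl level of 6.17% in islands and 47.3% in the open sea. Over all 78 the median level was 6.72% in Ctrl and 21.9% in CUMS, against 6.84% and 20.7% for other genes. The CUMS level reached 50% in 9 regions.

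CG promoter regions were examined gene by gene. The 32 hypermethylated regions belonged to 29 genes and had a median level of 6.44% in Ctrl and 21.1% in CUMS. Hypermethylated CG promoter regions of all genes had similar medians, of 6.36% in Ctrl and 18.5% in CUMS. In 31 of the 32 zinc finger regions the Ctrl level was at most 10.5%, and in 31 the CUMS level was at least 2 times the Ctrl level. The difference reached 10 points in 22 regions and 20 points in 5. The exception to the low Ctrl levels was Zfp111 (chr1:79774433-79774543), a KRAB zinc finger gene, whose open sea promoter region had 22.7% in Ctrl and 50.1% in CUMS.

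The largest promoter difference was in Zfp521, a cofactor of EBF transcription factors in haematopoietic and neural progenitors. Its region (chr18:5068662-5068752, 19 cytosines) had 10.5% in Ctrl and 39.0% in CUMS. Zfp275, an X-linked C2H2 gene, had 7.14% and 33.8% (chrX:151057435-151057723, 59 cytosines). Zfp467 had 5.57% and 31.8% in a shore (chr4:77393565-77393768), and 5.63% and 21.5% in the neighbouring island region. Both Zfp467 regions were therefore low in Ctrl and higher in CUMS, although the window printed above for that gene holds 1 CG. Zfp574 rose from 6.74% to 31.4% in one promoter region (chr1:80667512-80667842, 56 cytosines), which was also annotated to Grik5. In another it rose from 5.89% to 12.4%. Zfp703, a corepressor of the NET family, had 9.18% and 28.7% (chr16:65080711-65080850). Zfp804a, whose human counterpart carries a schizophrenia risk locus, had 9.69% and 29.1% (chr3:67033990-67034171). Zbtb10 had 6.45% and 23.8% over 120 cytosines (chr2:92509545-92509912). All of these except the Zfp467 shore and the Zfp111 region were in CpG islands.

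**Figure D4:**
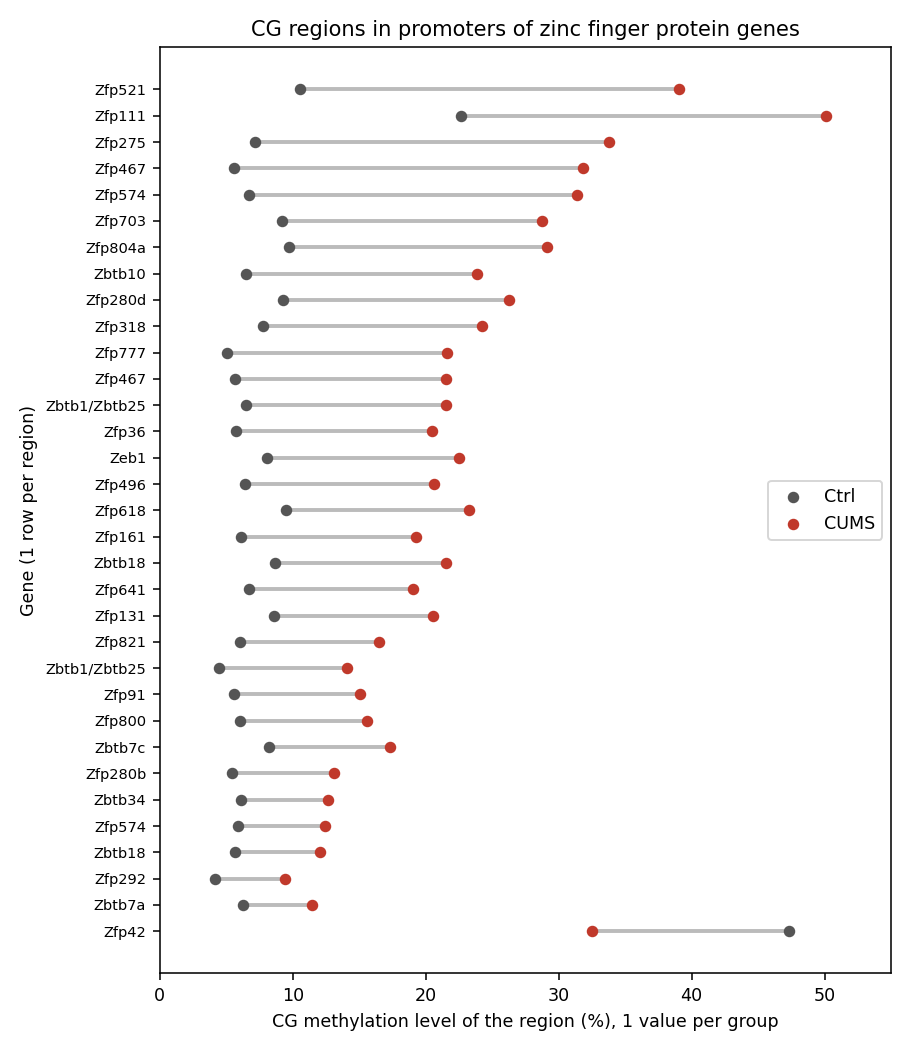
CG methylation level (%) of each promoter region of a zinc finger gene in Ctrl (grey) and CUMS (red), with 1 row per region, ordered by the difference. All rows except the last, Zfp42, are higher in CUMS, and all Ctrl levels except those of Zfp111 and Zfp42 are at most 10.5%.

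The smaller promoter differences included well-known regulators. Zbtb7a, a repressor of fetal globin genes, had 6.24% in Ctrl and 11.5% in CUMS, the smallest of the 32 differences. Zbtb18, a repressor needed for neuronal differentiation, had 8.65% and 21.5% in one region and 5.68% and 12.03% in another. Zbtb1 and Zbtb25 shared both of their regions, with 6.49% and 21.5% in one and 4.47% and 14.1% in the other. Zfp91, which encodes a ubiquitin ligase, had 5.56% and 15.1% in a region also annotated to Lpxn. Zbtb7c, a close relative of Zbtb7a, had 8.20% and 17.3% over 75 cytosines. The widest promoter region was that of Zfp777, a KRAB gene, with 5.07% and 21.6% over 207 cytosines. Zfp161, which the table describes as the Zbtb14 protein, had 6.14% and 19.3% in its promoter and 4.79% and 12.02% in an intronic island. Promoters of Zfp280d (9.29% and 26.3%), Zfp318 (7.75% and 24.3%) and Zfp618 (9.52% and 23.2%) lay in the upper part of the range, and those of Zfp280b (5.43% and 13.1%), Zbtb34 (6.09% and 12.7%) and Zfp292 (4.17% and 9.39%) in the lower part. Across all of these genes the Ctrl level stayed low while the CUMS level varied over a wider range.

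The hypomethylated CG promoter region was that of Zfp42 (Rex1), a marker of pluripotent cells. It had 47.3% in Ctrl and 32.5% in CUMS in the open sea, over 9 cytosines (chr16:48835617-48835688).

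Exon regions outside promoters covered both ranges of Ctrl level. Zfp628 rose from 6.80% to 32.2%, Zfp704 from 10.9% to 33.3%, and a region annotated to Zbtb37 from 8.98% to 30.5%. These 3 were island regions with low Ctrl levels. Zfhx3, which encodes a large homeodomain and zinc finger protein involved in circadian timing, had 49.2% and 70.5% over 83 cytosines, and Zbtb7c had 32.3% and 50.4%. Zfp444 (48.2% and 66.0%) and an open sea region of Zfp385a (61.9% and 78.8%) also belonged to the range of high Ctrl levels, whereas the island region of Zfp385a had 6.64% and 22.3%. Zfp385a encodes a double-stranded RNA-binding partner of p53. At the lower end were Zfp106 (3.82% and 8.71%) and Zfp869 (4.72% and 9.95%). Zfp316 held a pair of exonic islands, with 7.14% and 23.5% in one and 5.40% and 14.7% over 137 cytosines in the other.

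Zfpm1, a cofactor of GATA factors, held the hypomethylated CG exon region, an island with 41.5% in Ctrl and 28.4% in CUMS.

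Among CG regions in introns, the largest difference was in Zbtb7c (chr18:69569239-69569334), with 7.03% in Ctrl and 46.5% in CUMS, a difference of 39.4 points. It rests on 4 cytosines in a DNA transposon, the fewest cytosines of any zinc finger CG region. Zfp219 had 4.51% and 31.1% over 9 cytosines. Zfhx3 had 7.67% and 33.6% in one intronic island and 8.95% and 32.2% in another. Zfpm2, a GATA cofactor needed for coronary vessel formation, had 48.3% and 71.9% in the open sea. Zbtb46, a transcription factor of dendritic cells and endothelium, had 6.92% and 22.7% over 81 cytosines. Zbtb2 held intronic island regions with 11.4% and 28.0% and with 9.26% and 27.3%, over 100 and 60 cytosines. Zfp827, a protein of telomere chromatin, had 7.80% and 23.9%. The smallest listed CG difference was in Zfp638, an RNA-binding regulator of fat cell differentiation, with 3.79% and 8.38%. Intronic regions with high Ctrl levels were listed in Zfp385d (76.7% and 88.0%), Zfp407 (61.6% and 78.9%), Zbtb16 (28.5% and 49.5%) and Zfp532 (22.1% and 44.3%).

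The 9 hypomethylated CG regions came from 7 genes, and 3 of them lay in introns of Zfp804b, a paralogue of Zfp804a. Their levels fell from 47.1% to 13.3%, from 39.8% to 11.7% and from 54.8% to 27.4%, on 6, 5 and 14 cytosines. Zfp804b had no hypermethylated region. Zfp27 fell from 76.9% to 52.4% on 8 cytosines, and Zfp281, a regulator of pluripotency genes, from 77.8% to 54.7% on 5. Zfp281 was the only zinc finger gene with CG regions of both directions, since its exonic island region rose from 6.05% to 19.8% over 64 cytosines. Zfp605 fell from 27.5% to 11.3%, and Zfp365 from 20.6% to 7.93% in an island. The median Ctrl level of the 9 regions was 47.1%, against 78.2% for hypomethylated CG regions of other genes.

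CHG and CHH regions had 1 group close to 0 in nearly every case. Of the 88 regions, the lower group was under 1% in 84 and under 0.5% in 78. Hypermethylated CHG regions had a median of 0.104% in Ctrl and 4.50% in CUMS, and hypomethylated ones 3.37% and 0.0286%. The largest CHG increases were in Zfp618 (0.0421% to 8.79%), Zbtb39 (0.434% to 7.23%) and Zfp654 (0.162% to 6.44%). The largest decreases were in Zbtb7c (11.6% to 0.0317%), Zfp318 (8.74% to 0.371%) and Zfp365 (7.74% to 0.0369%). Only the Zbtb7c region reached 10 points in this context. Zbtb20, which is required for the development of hippocampal CA1, had an intronic CHG region with 2.75% in Ctrl and 0.0158% in CUMS, and Zbtb40 one with 3.61% and 0.0167%. The 3 hypomethylated CHG promoter regions were those of Zfp326 (3.37% and 0.0286%), Zfp382 (3.13% and 0.0279%) and Zfp777 (2.26% and 0.0289%), and all lay in islands. Zbtb24, which is mutated in a human syndrome of immunodeficiency and centromeric hypomethylation, had a promoter CHG region with 0.101% in Ctrl and 2.99% in CUMS.

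Hypermethylated CHH regions had a median of 0.221% in Ctrl and 6.80% in CUMS, and hypomethylated ones 6.95% and 0.138%. The largest increase was in an LTR element in an intron of Zfpm2 (chr7:71968041-71968354), from 0.232% to 24.7% over 173 cytosines. Zbtb16 (PLZF), a repressor that glucocorticoids induce in many cells, followed with 0.116% and 18.6%. Zfp462 had 0.555% and 17.1%, and Zfp110 (Nrif1), which binds the neurotrophin receptor p75, had 0.202% and 12.8%, both in SINE/Alu elements. The largest decreases were in Zfp536 (9.84% to 0.0380%), Zfp804a (8.88% to 0.0968%), Zfp366 (8.99% to 0.233%) and Zfp846 (8.16% to 0.525%). Zfp536 restrains neuronal differentiation and Zfp366 is a nuclear receptor corepressor of dendritic cells. Zfp598, a ubiquitin ligase that senses collided ribosomes, had an exonic CHH region with 0.145% and 5.77%. In promoters, Zfhx3 had 0.221% and 10.7% and Zfp420 had 5.22% and 0.0974%. All 8 CHH regions with a difference of at least 10 points were higher in CUMS, against a background of 90.5%.

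The genes were also grouped by function. For scale, 5999 of 20978 protein-coding symbols of the RefSeq gene table (28.6%) had a region of any kind. The E-box repressors each had 1 region, in a CpG island, the class in which 97.8% of the CG regions of all genes were hypermethylated. Zeb1, a driver of epithelial to mesenchymal transition, rose from 8.08% to 22.5% in its promoter, and Zeb2 from 5.30% to 18.5% in an intronic island. None of 5 zinc finger genes that encode readers of methylated DNA or guards of imprints (Zbtb4, Zbtb33, Zbtb38, Zfp57 and Zfp445) had a region. The GATA cofactors held 3 hypermethylated and 2 hypomethylated regions (background 78.1% hypermethylated). Of 4 CCCH genes, whose fingers bind RNA, 2 had a region. Zfp36 (tristetraprolin, which promotes decay of AU-rich mRNAs) rose from 5.75% to 20.5% in a CG promoter region. That region lay in an LTR element and was also annotated to Paf1. Zfp36l3 rose from 0.0235% to 5.98% in a CHG exon region.

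A list of 22 neural and developmental C2H2 genes had regions at 17 genes. The list was chosen with earlier results of these data known, so this number does not measure how often such genes had regions. Its regions were 33 hypermethylated and 11 hypomethylated ones with a median difference of 5.97 points in absolute value. The hypermethylated share was 75.0%, against 78.1% of all gene or promoter regions, whose median difference was 6.84 points. In CG, 15 of 20 were hypermethylated (background 87.7%), and 5 were lower in CUMS, namely the 3 of Zfp804b and the intronic ones of Zfp281 and Zfp365. Zfp423, a partner of EBF factors like Zfp521, rose from 23.4% to 44.9% in an open sea intron region, and Zfp503, a relative of Zfp703, from 4.97% to 15.1% in an exonic island. No region was listed for Zfp148, Zfp217, Zfp385c, Zfp488 or Zfp608.

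Corepressor partners of zinc finger proteins were counted in the same way. Of 22 partner genes, 13 had regions. This list was also chosen with earlier results of these data known. Its regions were 23 hypermethylated and 4 hypomethylated ones (85.2%, background 78.1%). CG made up 17 of these 27 regions, but 32.8% of all gene or promoter regions. In CG, 15 of the 17 were hypermethylated (background 87.7%). The median difference of the 27 was 8.62 points in absolute value, against 6.84 for all gene or promoter regions. Trim28, the partner of KRAB proteins, had an exon region with 6.60% in Ctrl and 16.2% in CUMS. Chd4, a remodeller of the NuRD complex, had a promoter region with 8.16% and 33.0%, and Zfp410, a zinc finger activator of Chd4, had a CHH intron region with 0.0944% and 5.56%. Bcor, a partner of BTB proteins, carried CG regions of both directions. Its promoter fell from 39.99% to 14.0%, and 2 intronic regions rose from 7.91% to 34.1% and from 9.48% to 34.3%. The partners without a listed region were Cbx1, Cbx5, Dnmt1, Dnmt3b, Hdac1, Ncor1, Setdb1, Smarcad1 and Uhrf1. Their relatives Dnmt3a and Cbx3 did have one, with 0.193% and 3.77% in a CHG intron region of Dnmt3a. The Cbx3 CG promoter region had 5.91% in Ctrl and 13.9% in CUMS.

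Regions were unevenly spread over the genes. A single region was listed for 62 genes and at least 2 for 36, of which 20 were hypermethylated throughout, 2 hypomethylated throughout and 14 mixed. Zfhx3 had the most with 10 regions over 252 kb, 9 of them hypermethylated. Its 4 CG regions all rose, and the exception was an intronic CHH region with 5.74% in Ctrl and 0.175% in CUMS. Its CG regions lay at both ends of the listed span, near the promoter with Ctrl levels of 8.95% and 7.67%, and in exons at the far end with 61.8% and 49.2%. The 3 CHG regions lay in introns between them and had CUMS levels from 2.74% to 3.55%. Zfp521 had 6 regions in all 3 contexts, all hypermethylated. Next to its promoter region, intronic islands had 7.64% and 16.3% and, further on, 5.46% and 11.5%. Zbtb7c and Zfp407 each had 5 higher and 1 lower region, and Zfp536 had 4 and 2. Zbtb16 (3 and 2) and Zfp618 (4 and 1) had 5 each.

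**Figure D5:**
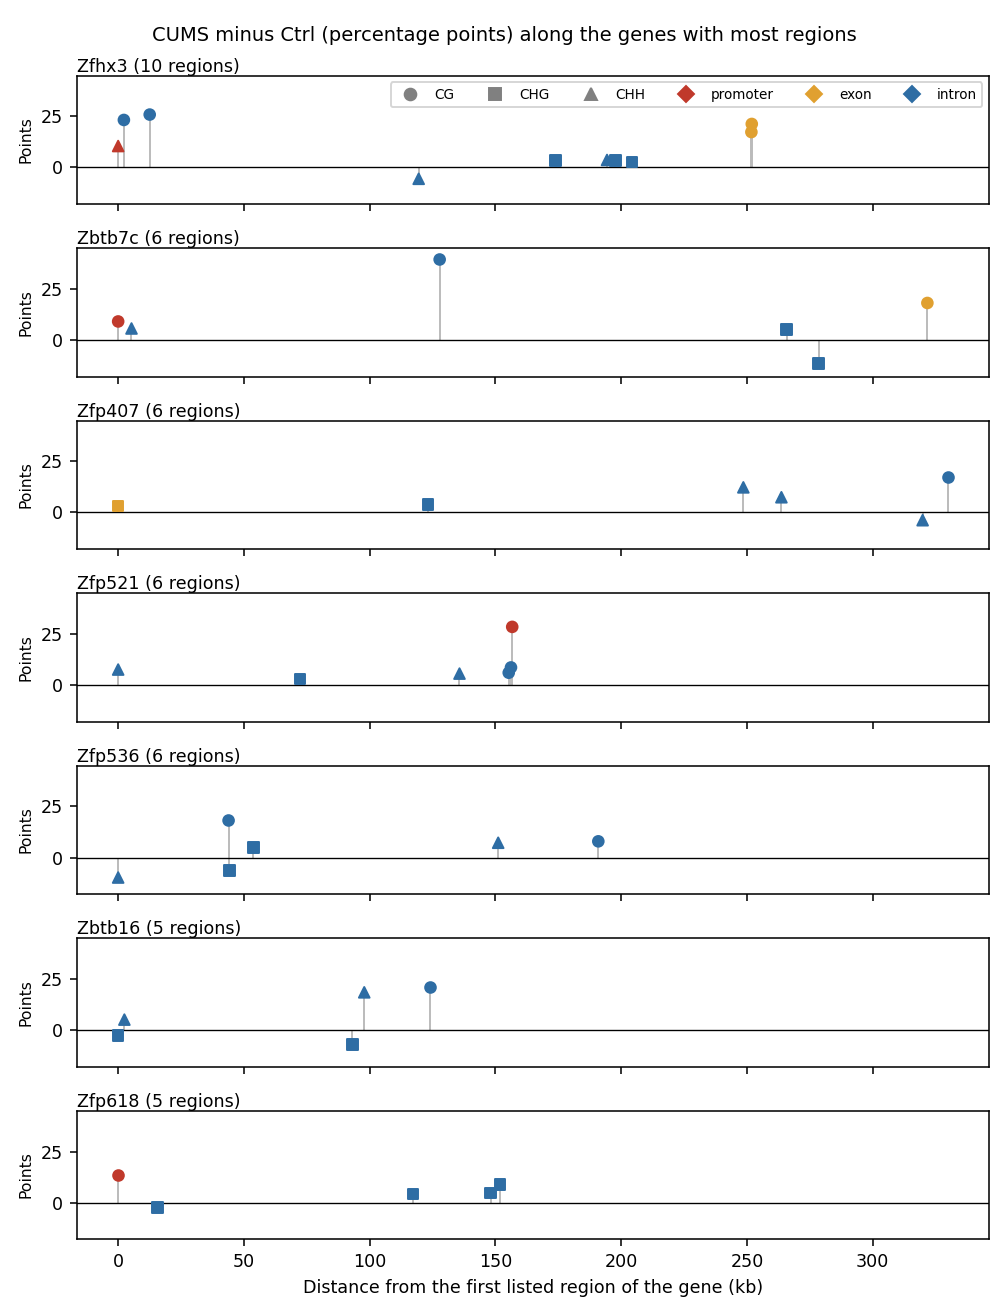
Difference of CUMS minus Ctrl (percentage points) of every region of the 7 zinc finger genes with the most regions, against distance from the first listed region of the gene (kb), with shape for context and colour for place. The tallest stems are CG regions, up to 39.4 points in Zbtb7c, and the regions of Zfp521 all lie above 0.

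Regions of a gene that lay close together mostly shared a direction. Of 19 pairs of zinc finger regions within 1 kb of each other, 16 (84.2%) had the same direction, against 1141 of 1247 pairs (91.5%) among all gene or promoter regions. In the 5 pairs of different contexts that overlapped, at Zbtb2, Zfp532, Zfp365, Zbtb39 and Zbtb47, both contexts moved the same way. Among all gene or promoter regions, 487 of 497 overlapping pairs did so too. At Zfp365 the CG level fell from 20.6% to 7.93% and the CHG level from 7.74% to 0.0369% over nearly the same bases. The 3 opposite pairs were at Zfp536, with CG higher and CHG lower 198 bp apart, at the Zfp777 promoter, with CG higher and CHG lower 587 bp apart, and at Znf768, with CHH regions of opposite direction 163 bp apart.

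Zinc finger genes often lie in tandem clusters, and several of these genes were neighbours. Zfp420, Zfp27 and Zfp382 on chromosome 1 lay within 500 kb, and each carried only 1 region. These regions were lower in CUMS, in CHH, CG and CHG respectively, as were 21.9% of all gene or promoter regions. Zfp560 and Zfp846 on chromosome 8 each had 1 region, also lower. The neighbours Zfp704 and Zbtb10, Zeb1 and Zfp438, and Zbtb1 and Zbtb25 had hypermethylated regions only. Znf48, Znf768 and Zfp629 lay within 500 kb of each other on chromosome 1. On chromosome 4, Zfp777 lay within 500 kb of Zfp786 on one side and of Zfp467 on the other. These last 3 genes had 4 hypermethylated regions and 1 hypomethylated region, all in promoters. Regions were found on 21 chromosomes, with the most on chromosome 1 (25) and chromosome 18 (24). Those on chromosome 18 came from Zbtb7c (6), Zfp407 (6), Zfp521 (6), Zfp532 (4) and Zfp236 (2). The listed regions of all genes were not counted by chromosome.

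The tables list only regions that differed, so the endothelial label could not be checked by marker levels. Regions were listed at 2 of 6 endothelial markers (Pecam1 and Tek, 1 higher and 1 lower), 2 of 3 neuronal markers (6 higher), 2 of 3 oligodendrocyte markers (2 lower) and at none of the astrocyte, microglial or pericyte markers. Of all RefSeq protein-coding symbols, 28.6% had a region, and 78.1% of all gene or promoter regions were higher in CUMS. Whether other cells in the sort had a part in the levels reported here was not tested.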

How the data were processed

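Per the study's methods, libraries were made by enzymatic conversion with TET2 and APOBEC3A, in which a cytosine that escapes deamination reads as methylated. The submitters' processing notes name FastQC 0.11.3, fastp 0.20.0, Bismark 0.16.3 and Bowtie2, with the mRatBN7.2 (rn7) assembly, and the methods name DSS for region calling. The authors deposited each methylation level as a fraction from 0 to 1 per group, shown here in percent, and an areaStat score, which the authors' DSS run sums over cytosines and which was used here only to choose a direction where overlapping regions were joined. Sample titles gave the groups. The deposited tables held no per-sample value and no read number per region, so intervals were not given, and the planned exact permutation test over samples was replaced by description.

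Regions were counted with Python 3.11.15 and pandas 2.3.3, once by chromosome, start, end and context, and a step tested on simulated data recovered every planted region. Each region was placed by the rows of its zinc finger gene, promoter before exon (with untranslated, start and end features) before intron. The members and lists were chosen with earlier results of these data known. Named regions were the largest by absolute difference (8, 5 and 5 hypermethylated CG regions in promoters, exons and introns, 5 hypomethylated CG regions, 3 CHG and 4 CHH regions per direction), the 6 genes with most regions, a tie at the sixth gene being shown in full, and the regions of fixed lists, or their 4 largest where a list had over 12. Other regions named were chosen after their values were seen. CHH regions in the annotated table are only part of the full CHH list. In the table, 13 zinc finger regions were also annotated to another gene. Among them were regions of Zfp574 (Grik5), Zfp36 (Paf1), Zfp91 (Lpxn), Zbtb39 (Gpr182), Zfp654 (Cggbp1), Zfp629 (Rnf40) and Zfp42l (Clstn3). The descriptions of Zbtb37, Zfp622 and Zfp629 named other proteins. All these assignments are uncertain. Some regions covered by the naming rule are not reported here by name.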

Additional observations from a re-analysis of the deposited data

Results flagged for a closer look

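The full list of CHH regions holds further regions that the annotation table leaves out. Within the spans between the first and last listed region of the 36 zinc finger genes with at least 2 regions, 151 further CHH regions were listed, of which 101 were hypermethylated and 50 hypomethylated. They stand out only as a signal in data outside the main counts. The hypermethylated share was 66.9%, against 63.5% of the 135830 regions of the full list outside the table. Zbtb7c held 30 of them (17 higher and 13 lower), Zfhx3 15 (12 and 3), Zfp536 15 (10 and 5) and Zfp407 14 (11 and 3). The difference between these shares was not tested.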

How the results depend on the processing

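Over 9 results and 10 alternatives, 86 comparisons were made, of which 74 kept the value within its limits, 11 moved and 1 changed direction. With differences of at least 10 points, 74 regions of 58 genes were left. The hypermethylated share was then 86.5% of all regions, 95.8% of promoter regions and 100% of the 8 CHH regions. The 1 CHG region left was hypomethylated (0% hypermethylated). At the same limit, 80.9% of all annotated regions were hypermethylated. That set includes regions outside genes, so it is not a like background for the 86.5%. Among gene or promoter regions at this limit, the share was 83.8% in CG, against 86.2% for zinc finger genes. It was 61.8% in CHG and 90.5% in CHH. With at least the median number of cytosines of the context, the share was 85.5% of all and 97.0% of CG regions. Outside repeats it was 57.1% of CHH regions (background 76.2%). An alternative chosen after seeing the data, with the lower group at 1% or more, left 91 regions, with 89.0% of all and 97.0% of promoter regions hypermethylated. No background was counted for the promoter share at 10 points, the median number of cytosines or the 1% limit. These shares therefore cannot be set against other genes. Fewer regions entered each of these counts, and other causes were not tested. Shares were held to binomial 95% intervals over regions, which are not independent, and the numbers of regions and genes to a factor of 1.5. No paired analysis was possible because only 1 level per group was deposited, and for the same reason no replicate could be left out. The tables hold no read number per region, so the precision of single levels, also in regions of few cytosines, is unknown. The smallest listed difference was 4.58 points in CG, 2.15 in CHG and 2.36 in CHH, and smaller changes were not listed. Of the 175 regions, 101 lay under 10 points, the limit that the methods name.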
